A study of Homo sapiens with 24 samples.

Results

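The genes described here make ribosomes or answer to MYC: 38 named genes that comprise the transcription factors MYC and MAX, nucleolar proteins, RNA polymerase I subunits, proteins of the small nucleolar ribonucleoprotein particles, assembly factors of both ribosomal subunits, and the metabolic MYC targets ODC1 and CAD. They were chosen by name, and each was read from the probe set annotated to its symbol, the one with the highest mean over 24 arrays where a gene had several. A value was obtained for 35 of the 38, out of 18417 genes with a probe set of 1 symbol in the table. NOP56 and PPAN were represented only by probe sets that also carry the names of other genes, GNL3 had no probe set named here, and no value is given for these 3.

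The arrays measured RNA of GM10861 and GM10855, lymphoblastoid lines of the HapMap collection, which are B cells immortalised with Epstein-Barr virus and grown in suspension. Each line was given calcitriol and estrogen together, calcitriol alone or estrogen alone for 36 h, or was left untreated and sampled at 0 h, with 3 arrays in each of the 8 groups. Calcitriol is the hormone form of vitamin D. Each line comes from 1 donor, so a difference between the lines describes these 2 lines. Doses, the estrogen compound, any vehicle and the culture medium are in none of the sources used here. Treated cells were sampled at 36 h and untreated cells at 0 h, so in every comparison with untreated cells an agent and the time in culture cannot be told apart, whereas the treated groups are matched in time. Nothing in the labels shows whether the 3 arrays of a group stem from different cultures, so the p-values cover only the variation among these arrays, and that variation may be technical.

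Ribosome production starts in the nucleolus, where RNA polymerase I copies the ribosomal DNA into a long precursor. Small nucleolar ribonucleoprotein particles guide the methylation and pseudouridylation of that precursor, and a long series of assembly factors folds and cuts it into the rRNA of the small and the large subunit. MYC, as a dimer with MAX, binds the E-box CACGTG and raises the transcription of many of these factors and of enzymes that supply nucleotides and polyamines. In B cells stimulated to divide, and in lymphoblastoid lines, MYC and the nucleolar genes are known as part of the growth programme.

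The E-box was searched in the RefSeq promoter windows of build GRCh38.p14, which run from 250 bases before to 50 bases after a gene's start. Windows were found for 32 of the 38 genes, and 14 of the 32 (43.8%) held at least 1 CACGTG, against 10.9% of 15842 protein-coding genes. The motif is its own reverse complement, so both strands were covered by 1 search. MYC, NOP58, NOLC1, BOP1, RRP12 and RRS1 had no window. The letters of a motif are a description and do not show that a factor binds there. UTP20 and NAT10 are shown because both were higher in GM10861 and hold the motif before the start that lies farthest upstream. The 250 bases that end at that start are printed 5′ to 3′ in lower case, with the E-box in capitals.
UTP20 (chr12:101279855-101280104, plus strand): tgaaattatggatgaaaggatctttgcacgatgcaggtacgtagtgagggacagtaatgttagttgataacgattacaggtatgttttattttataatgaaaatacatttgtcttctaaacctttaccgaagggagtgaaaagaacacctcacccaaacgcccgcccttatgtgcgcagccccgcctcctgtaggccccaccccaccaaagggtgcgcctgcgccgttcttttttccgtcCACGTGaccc
NAT10 (chr11:34105379-34105628, plus strand): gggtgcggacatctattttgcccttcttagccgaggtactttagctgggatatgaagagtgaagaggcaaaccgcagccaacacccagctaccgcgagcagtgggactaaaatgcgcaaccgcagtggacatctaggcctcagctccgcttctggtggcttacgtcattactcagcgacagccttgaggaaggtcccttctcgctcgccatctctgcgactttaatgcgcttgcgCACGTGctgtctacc
In UTP20 the E-box begins 10 bases before the start, and in NAT10 it begins 15 bases before it.

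The table holds log2 signals, and the median signal of an array lay between 5.38 and 5.50. Arrays of 1 group correlated at r = 0.985 to 0.993 across probe sets, arrays of different lines at 0.978 to 0.984, and no pair of arrays held identical values. All 5 known calcitriol targets on a check list rose with calcitriol against untreated cells, by 0.44 (VDR) to 2.46 (CAMP) on the log2 scale. That list was chosen with earlier results of these data known, so the rise is a description. Of 12 B-lymphoblastoid markers 10 were measured, and their summed log2 signal ran from 82.38 to 84.4 in GM10861 and from 82.4 to 86.53 in GM10855. The B cell marker MS4A1 averaged 10.96 in GM10861 and 10.71 in GM10855. The 6 T cell markers summed to 24.72 to 25.6 in GM10861, against 27.38 to 28.23 in GM10855, where TRAT1 stood out (3.38 in GM10861 and 5.94 in GM10855). CD3D, the defining T cell marker, was at 4.62 in both lines, and the monocyte marker CD14 was at 5.17 in GM10861 and 5.29 in GM10855, below the median of the arrays. Other markers lay above it. The highest group mean of a monocyte marker was 5.52 in GM10861 and 5.71 in GM10855. That of an epithelial or fibroblast marker was 6.71 in GM10861 and 6.98 in GM10855.

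These genes differed mainly between the lines. GM10861 had higher signals than GM10855 for 35 of the 35 measured genes, and 33 of them (94.3%) passed the threshold, an adjusted p under 0.05 in limma with Benjamini-Hochberg adjustment over 21214 probe sets. None passed in the other direction. Over all probe sets tested 41.8% were called between the lines, 23.4% higher in GM10861 and 18.4% lower. The median difference of the 35 genes was 0.26 on the log2 scale, GM10861 minus GM10855, against -0.02 for all probe sets. The differences ran from 0.01 for MAX to 0.55 for LYAR, which is 1.01-fold and 1.46-fold. In these bulk samples a gene's level in fewer cells and a lower level per cell cannot be told apart.

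**Figure D1:**
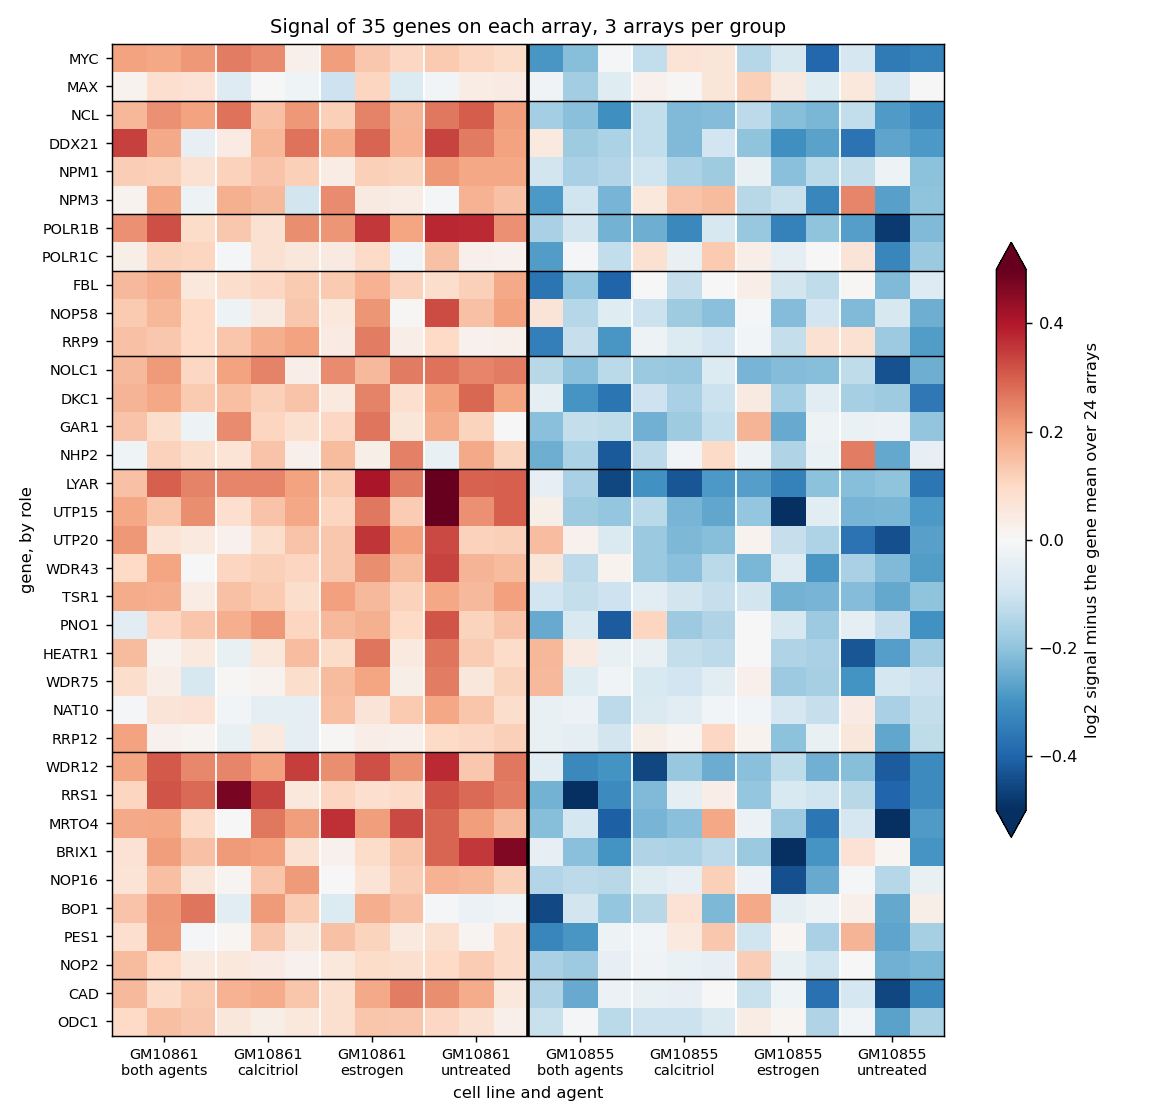
Log2 signal of each of the 35 genes (rows, grouped by role) on each of the 24 arrays (columns, 3 per group, with GM10861 left and GM10855 right of the heavy line), as the difference from the gene's mean over all arrays. Nearly all rows are red on the GM10861 side and blue on the GM10855 side, while the 4 treatment groups within a line look alike.

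All 35 genes had a mean log2 signal of at least 6, where calls between the lines were more frequent. Of the 14526 probe sets with a mean of at least 5, 52.1% were called (31.1% higher, 21.0% lower). Among the 9689 probe sets with a mean of at least 6, 59.4% were called, 39.8% higher and 19.6% lower in GM10861, and their median difference was 0.06. The 94.3% of the 35 genes called higher was above each of these shares. With cyclic loess, a scaling that removes shifts that depend on signal, the median difference of the members was 0.20. All 35 were still higher in GM10861 and 28 passed the threshold, while the median of the probe sets at or above log2 6 was 0.00. The shares of probe sets above belong to the deposited scaling, so the 28 has no like share beside it.

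MYC itself was among the genes that differed. Its log2 signal was lowest at 8.32, with a median of 8.46 and a highest value of 8.55, over the 12 GM10861 arrays, against 7.90, 8.16 and 8.36 over the 12 GM10855 arrays. The ranges of the lines overlapped. Of the 12 GM10861 arrays 11 lay above every GM10855 array, and 10 of the 12 GM10855 arrays lay below every GM10861 array. The difference was 0.32 ± 0.05 (SE), with an adjusted p = 7.26e-06 in limma. MAX, the partner that MYC needs to bind DNA, ran from 6.26 to 6.47 in GM10861 and from 6.19 to 6.48 in GM10855. The lines overlapped over almost the whole range of MAX, and without the second estrogen array of GM10861 its difference turned to -0.002. Over all arrays its difference was 0.01 with a 95% interval from -0.06 to 0.09, and the adjusted p of 0.785 missed the threshold.

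The nucleolar proteins were all 4 higher in GM10861. NCL, nucleolin, an RNA-binding protein of rRNA transcription and processing, had signals of 10.64 to 10.82 (median 10.73) in GM10861 and 10.20 to 10.40 (median 10.31) in GM10855. No GM10855 array reached the lowest GM10861 array, and the difference of 0.42 ± 0.04 (SE) had the smallest adjusted p among the members, 5.21e-10. DDX21, an RNA helicase of the nucleolus, averaged 9.85 in GM10861 and 9.45 in GM10855, a difference of 0.40. NPM1, nucleophosmin, a chaperone of the granular nucleolus, averaged 11.87 in GM10861 and 11.61 in GM10855, a difference of 0.26. Of its 4 probe sets, 3 gave differences of 0.25 to 0.26 and the one with the lowest signal, a mean of 3.75, gave 0.14 and was not called (adjusted p = 0.0916). The identifiers of the 3 follow one another, between those of SPRR2G on chromosome 1 and EIF3F on chromosome 11. That of the low-signal probe set lies between TLX3 and FGF18 on chromosome 5, where NPM1 is. The 3 may thus not be separate readings, and what they measure was not checked. NPM3, a relative of NPM1, was higher by 0.18.

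Among the RNA polymerase I subunits POLR1B, the second-largest subunit, differed clearly. Its signal was 7.99 to 8.28 (median 8.14) in GM10861, against 7.43 to 7.83 (median 7.68) in GM10855, and the lines did not overlap. The difference was 0.47 ± 0.04 (SE, adjusted p = 3.54e-09). POLR1C, which RNA polymerases I and III share, was higher by 0.12 ± 0.04 (SE), with an adjusted p of 0.0372 in limma. It was called in 19 of the 32 fits that averaged over all 4 treatment groups, including the one reported. Its difference on the calcitriol arrays was -0.01.

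The probe sets of the proteins of the small nucleolar particles were 7 of 7 called higher in GM10861, or 6 of 6 without NHP2, whose probe set is in doubt. Of the box C/D particles, which guide ribose methylation, FBL (fibrillarin, the methyltransferase) was higher by 0.26, NOP58 (a core protein) by 0.25 and RRP9 (a protein of the U3 particle) by 0.23. FBL ran from 8.96 to 9.10 in GM10861 and from 8.51 to 8.95 in GM10855, without overlap. Of the box H/ACA particles, which guide pseudouridylation, NOLC1 (a chaperone of the particles) was higher by 0.40, DKC1 (dyskerin, the pseudouridine synthase) by 0.33, and the core proteins GAR1 by 0.23 and NHP2 by 0.19. NOLC1 ran from 8.37 to 8.61 in GM10861 and from 7.90 to 8.27 in GM10855, without overlap. DKC1 ran from 8.35 to 8.59 in GM10861 and from 7.94 to 8.35 in GM10855, and the lines were just apart. The other NHP2 probe set gave a difference of 0.01 (adjusted p = 0.889). The identifier of the probe set that was read lies between those of BTAF1 and MARCHF5 on chromosome 10, where the pseudogene NHP2P1 is annotated, whereas NHP2 is on chromosome 5, so which copy it measures is uncertain. Without NHP2, 32 of 34 genes were called higher in GM10861.

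Of the 10 measured assembly factors of the small subunit, 9 were called higher in GM10861, with a median difference of 0.29 over the 10. LYAR, a nucleolar zinc finger protein, had the largest difference of the 35. Its signal was 7.68 to 8.05 (median 7.80) in GM10861 and 7.09 to 7.51 (median 7.27) in GM10855, with no overlap, and the difference was 0.55 ± 0.05 (SE, adjusted p = 1.24e-09). UTP15 (0.42), WDR43 (0.30), HEATR1 (0.22) and WDR75 (0.16) belong to the subcomplex that binds the precursor first and is tied to its transcription. UTP20 (0.31), a large scaffold of the small subunit processome, TSR1 (0.30) and PNO1 (0.28), which act on later precursors, and NAT10 (0.13), the acetyltransferase of 18S rRNA, completed the called factors. TSR1 ran from 7.97 to 8.14 in GM10861 and from 7.67 to 7.88 in GM10855. It and UTP15 did not overlap between the lines. RRP12, a factor of small subunit export, had a difference of 0.10 and an adjusted p of 0.0529, which missed the threshold.

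**Figure D2:**
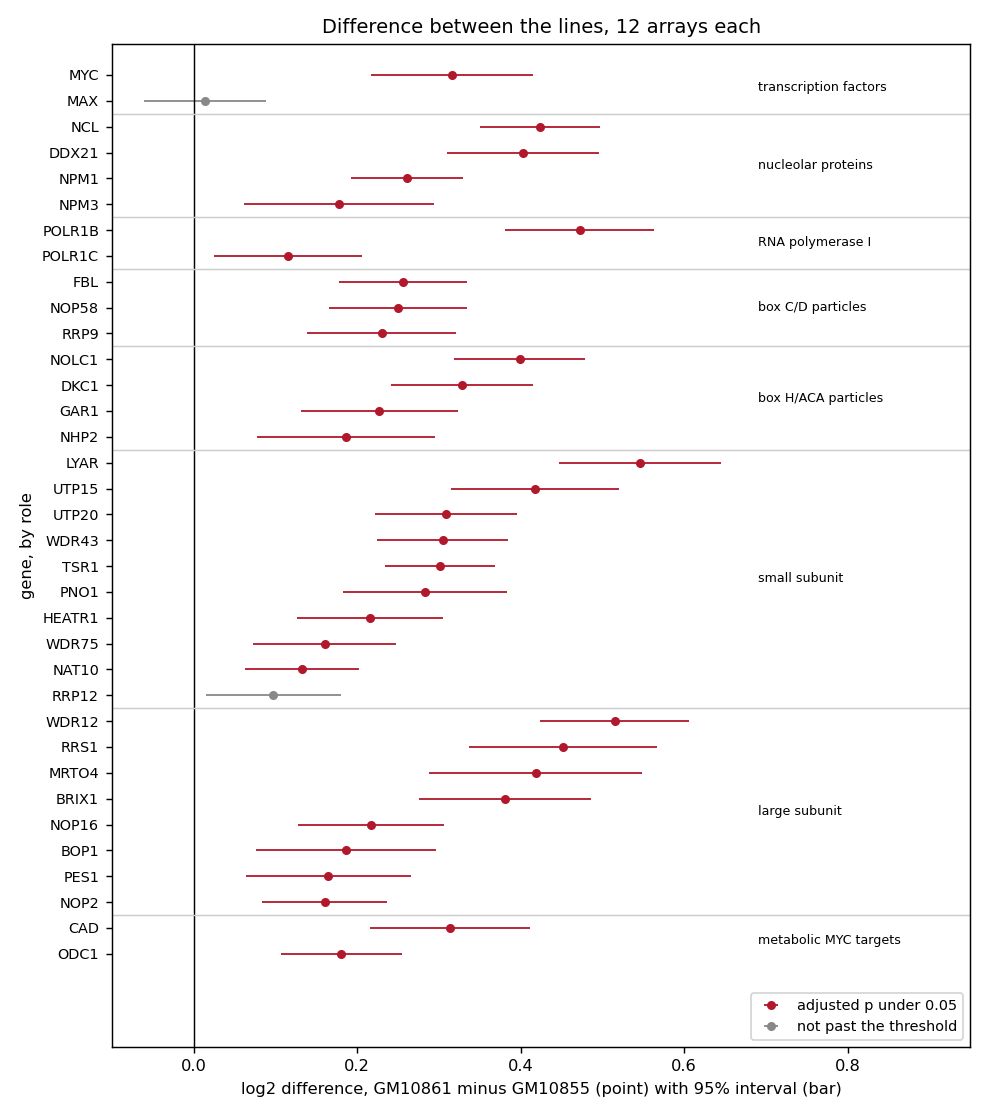
Difference in log2 signal between the lines, GM10861 minus GM10855 (x axis), for each of the 35 genes (y axis, by role), averaged over the 4 treatment groups with 12 arrays a line. Points are estimates and bars are 95% intervals. LYAR at 0.55 is farthest right, and MAX at 0.01 and RRP12 at 0.10, in grey, did not pass the threshold.

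The 8 measured assembly factors of the large subunit were all called higher in GM10861, with a median difference of 0.30. WDR12, BOP1 and PES1 form 1 complex that processes the rRNA of the large subunit, and their differences were unlike in size. WDR12 ran from 8.87 to 9.10 (median 8.97) in GM10861 and from 8.28 to 8.68 (median 8.49) in GM10855, a difference of 0.51 ± 0.04 (SE, adjusted p = 7.94e-10) without overlap. BOP1 was higher by 0.19 and PES1 by 0.16, and in both the lines overlapped. The other BOP1 probe set gave 0.06 (adjusted p = 0.385). RRS1 (0.45), which helps to load the 5S rRNA, MRTO4 (0.42), a stand-in for a stalk protein of the finished subunit, and BRIX1 (0.38) lay above the median of the group, and NOP16 (0.22) and NOP2 (0.16), a methyltransferase of 28S rRNA, lay below it. RRS1 was the only one of these 5 whose lines did not overlap.

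The metabolic targets followed the same direction. CAD, the enzyme that opens pyrimidine synthesis, ran from 7.16 to 7.36 in GM10861 and from 6.65 to 7.11 in GM10855, without overlap, a difference of 0.31 (adjusted p = 6.73e-06). ODC1, the first enzyme of polyamine synthesis, averaged 10.56 in GM10861 and 10.38 in GM10855, a difference of 0.18 (adjusted p = 2.10e-04). In all, 12 of the 35 genes had no overlap between the 12 arrays of each line, all higher in GM10861. Of all probe sets tested 7.19% were higher and 3.25% lower in GM10861 without overlap.

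The line difference was present under each agent, in sizes that varied. GM10861 was higher for 34 of 35 genes with both agents (median difference 0.27), 31 with calcitriol (0.22), 34 with estrogen (0.24) and 35 in untreated cells (0.37). In untreated cells alone, 26 of 35 genes were called higher in GM10861 and none lower, against 24.3% of probe sets called, 16.2% higher and 8.15% lower. With cyclic loess 17 were called, a scaling to which those shares do not belong. The line differences within 1 agent came from the fit of the deposited values to all 24 arrays. They called 23 genes higher with both agents, 15 with calcitriol and 16 with estrogen, and none lower. Of all probe sets 19.8% were called with both agents (12.5% higher, 7.36% lower), 19.0% with calcitriol (10.8% higher, 8.24% lower) and 19.3% with estrogen (12.7% higher, 6.64% lower). Differences below 0 were -0.015 for WDR75 with both agents (adjusted p = 0.939), -0.03 for NPM3, -0.01 for POLR1C, -0.06 for RRP12 and -0.06 for MAX with calcitriol, and -0.06 for MAX with estrogen. Each of these differences compares means of 3 arrays a line, with the spread estimated from all 8 groups.

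**Figure D3:**
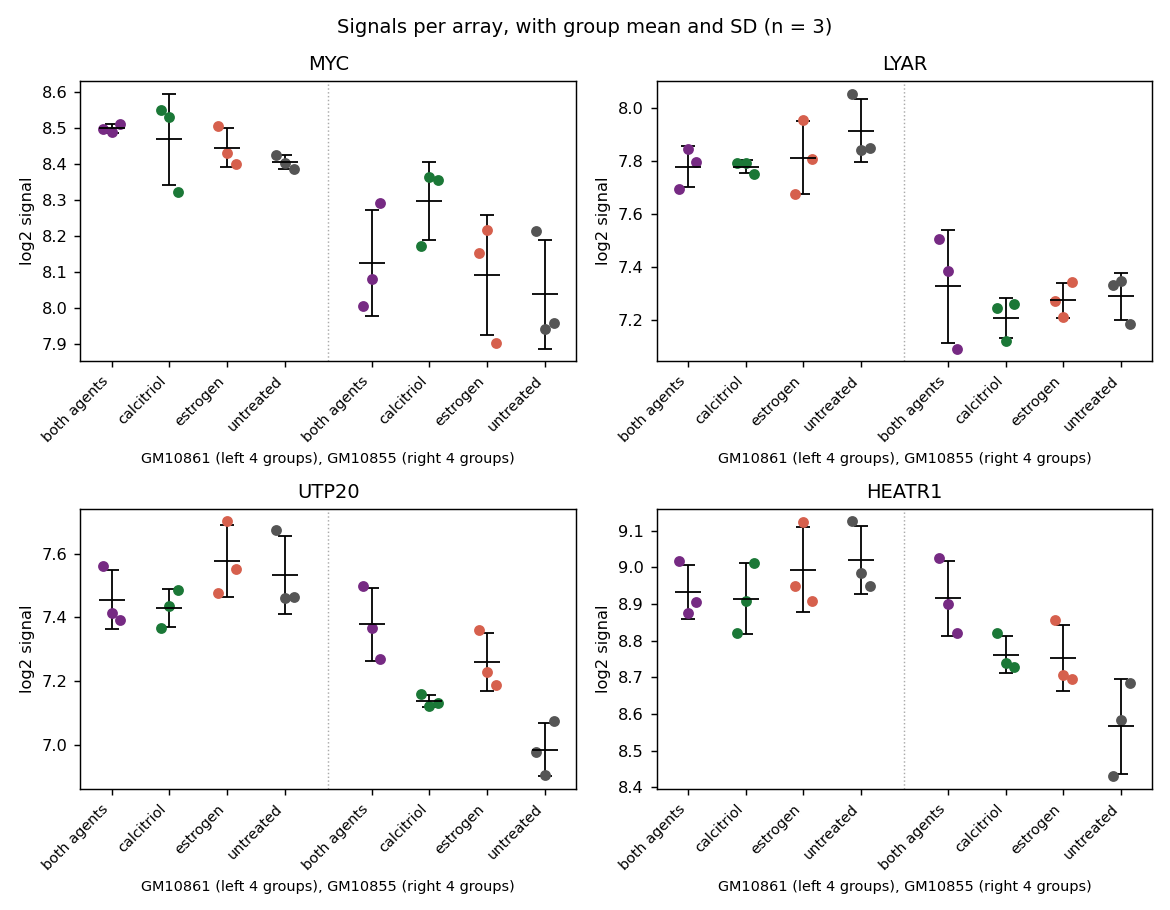
Log2 signal (y axis) of MYC, LYAR, UTP20 and HEATR1 on each array, with GM10861 groups left and GM10855 groups right of the dotted line. Points are arrays, and the bar and whiskers are the mean and SD of 3 arrays. LYAR separates the lines under every agent, whereas UTP20 and HEATR1 of GM10855 are lowest in untreated cells and highest with both agents.

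Genes of the same pathways outside the 38 moved in the same direction between the lines. Of 39 measured assembly factors of the small subunit 28 were called higher in GM10861 and none lower, with a median difference of 0.23, led by WDR3 (0.47), UTP18 (0.41), FCF1 (0.43) and BYSL (0.38). Of 36 factors of the large subunit 27 were higher and none lower (median 0.22), led by MAK16 (0.48), PAK1IP1 (0.36), TEX10 (0.27) and LAS1L (0.29). RNA polymerase I subunits and factors were higher in 12 of 19 and lower in none (median 0.18), among them TAF1B (0.71), which helps to recruit the polymerase, and the subunits POLR1F (0.61), POLR1E (0.40) and POLR2H (0.28). Partners of the box C/D and box H/ACA proteins were higher in 6 of 9 and lower in none (median 0.17), with RPAP3 (0.42), TGS1 (0.38), ZNHIT6 (0.25) and NUFIP1 (0.33) in front. Of 13 genes of the exosome that trims pre-rRNA 8 were higher, such as EXOSC2 (0.47), EXOSC8 (0.55) and EXOSC9 (0.38), and 1 was lower, C1D (-0.35, named after its value was seen). These counts stand beside the 23.4% higher and 18.4% lower of all probe sets.

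Targets of MYC outside ribosome production gave a similar count with 1 clear exception. Of 30 further targets 21 were higher in GM10861, among them the chaperone gene HSPD1 (0.44), C1QBP (0.45) and PA2G4 (0.40), and 1 was lower, the transferrin receptor gene TFRC (-0.65, adjusted p = 9.65e-12). Of 17 enzymes of purine and pyrimidine synthesis 15 were higher and none lower, with a median difference of 0.38. RRM2, a subunit of ribonucleotide reductase, differed most (1.15), followed by PAICS (0.44), IMPDH2 (0.48) and PRPS1 (0.48) in the order of their p-values. Over all probe sets tested 23.4% were higher and 18.4% lower, and among those with a mean of at least 6 these shares were 39.8% and 19.6%. Of 10 polyamine genes, ODC1 included, 4 were higher, a share near that of the brighter probe sets, and 1 was lower, SAT1, the enzyme that acetylates polyamines for export and breakdown (-0.59), beside AMD1 (0.39), OAZ1 (0.25) and SMS (0.25). None of the 11 genes that MYC is known to repress was higher and 6 were lower, with a median difference of -0.14, among them the cell cycle inhibitor gene CDKN1A (-0.76), NDRG1 (-0.39), GADD45A (-0.19) and DDIT3 (-0.22).

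The genes around MYC itself did not share 1 direction. Of 15 measured genes of the MYC network 4 were higher and 4 lower in GM10861, near the 23.4% higher and 18.4% lower of all probe sets. Those lower were led by MXI1 (-0.66) and MXD1 (-0.29), which compete with MYC for MAX, and those higher by RUVBL1 (0.40) and RUVBL2 (0.16), ATPases of chromatin complexes that MYC recruits. Markers of dividing cells moved with the line difference. All 9 were called higher in GM10861, with a median difference of 0.59, led by MKI67 (0.85), TOP2A (0.72), CDK1 (0.74) and CCNA2 (0.59), and their summed log2 signal ran from 80.56 to 82.62 in GM10861 and from 75.29 to 76.74 in GM10855. Of the 10 B-lymphoblastoid markers 4 were higher and 5 lower in GM10861, of 6 T cell markers 2 were lower, of 6 monocyte markers 2 were lower, and of 6 epithelial and fibroblast markers 1 was higher and 1 lower, beside the same shares of all probe sets. The part of these markers in the difference of the 35 genes was not tested.

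**Figure D4:**
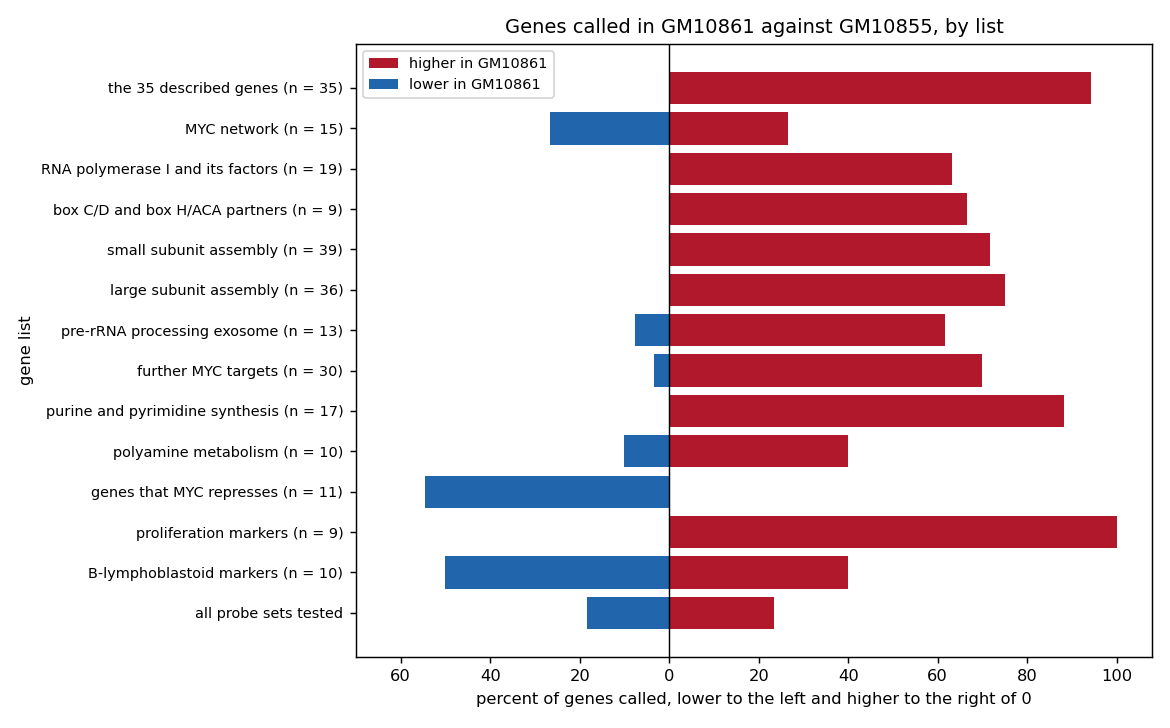
Share of the measured genes of each list that were called higher (red, right of 0) or lower (blue, left of 0) in GM10861 against GM10855, in percent, with all 21214 probe sets in the bottom row. The described genes (94.3% higher), nucleotide synthesis and the 9 proliferation markers extend farthest to the right, and the genes that MYC represses extend only to the left.

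The hormones left these genes without a call when both lines were averaged. Calcitriol against untreated cells called 0 of 35, where 0.679% of probe sets were called. An unadjusted p under 0.05 was held by 1 member and by 6.55% of probe sets. The changes ran from -0.14 for BRIX1 to 0.16 for MYC, with a median of 0.02, and the 95% intervals of all 35 genes lay within -0.29 and 0.30. MYC had signals of 8.55, 8.53 and 8.32 with calcitriol in GM10861, against 8.43, 8.40 and 8.39 untreated, and 8.17, 8.36 and 8.36 with calcitriol in GM10855, against 8.21, 7.94 and 7.96 untreated. The treated and untreated arrays of MYC overlapped in both lines, and its change of 0.16 ± 0.07 (SE) had an unadjusted p of 0.0259 and an adjusted p of 0.646. Next by p-value were CAD (0.14, adjusted p = 0.777) and RRP9 (0.09) among the positive changes and, after BRIX1, LYAR (-0.11) and NAT10 (-0.07) among the negative ones, none past the threshold. MAX had a change of -0.01. In the same comparison GADD45A, a stress gene that MYC represses, rose by 0.32 (adjusted p = 0.0199), the single gene called in the lists on ribosome production and MYC.

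Estrogen against untreated cells called 0 of 35, and 0.0% of all probe sets. Unadjusted p-values under 0.05 numbered 3 among the members, beside 5.17% of all probe sets. BRIX1, an assembly factor of the large subunit, had the largest change, -0.29 ± 0.07 (SE), with an unadjusted p of 5.98e-04 and an adjusted p of 0.58. UTP20 had a change of 0.16 (adjusted p = 0.86) and NOP16 one of -0.13 (adjusted p = 0.948). The medians were 0.01 for the members and 0.01 for all probe sets. MYC had a change of 0.05, with a 95% interval from -0.09 to 0.19, and MAX one of 0.00.

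Both agents against untreated cells called 0 of 35, against 1.15% of probe sets. An unadjusted p under 0.05 was held by 4 members and by 10.9% of probe sets. The changes of UTP20 (0.16, adjusted p = 0.281), HEATR1 (0.13, adjusted p = 0.431), BRIX1 (-0.17, adjusted p = 0.365) and FBL (-0.11, adjusted p = 0.445) were the ones below that level, and the median was 0.01. MYC had a change of 0.09, with a 95% interval from -0.05 to 0.23, and MAX one of -0.02. The 3 comparisons share the untreated arrays, and BRIX1 in them stood at -0.14 with calcitriol, -0.29 with estrogen and -0.17 with both. Outside the 35 genes FBXW7 (0.31), a ubiquitin ligase subunit that marks MYC for degradation, and GADD45A (0.30) rose with both agents, and no gene of the lists on ribosome assembly was called in any of the 3.

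The treated groups, matched at 36 h, gave the same counts. Both agents against estrogen alone called 0 of 35 (0.754% of probe sets), with FBL at -0.13 (unadjusted p = 0.0211) the single member under 0.05. Both agents against calcitriol alone called 0 of 35 (0.0% of probe sets), with 4 members under 0.05 before adjustment, RRS1 (-0.20), FBL (-0.13), NPM3 (-0.17) and UTP20 (0.13). Calcitriol against estrogen called 0 of 35 (0.57% of probe sets), with NOP16 (0.15) and UTP20 (-0.13) under 0.05. The interaction of the agents also uses the untreated arrays sampled at 0 h, so it is not matched in time. It called 0 of 35 (0.0% of probe sets), with BRIX1 (0.26) and RRP9 (-0.20) under 0.05 and an adjusted p of 0.992 for each. Before adjustment 7.94%, 8.35%, 7.43% and 4.41% of all probe sets were under 0.05 in these 4 comparisons, in the order given. MYC had changes of 0.04, -0.07, 0.11 and -0.12 in these 4 comparisons, with adjusted p-values from 0.765 to 0.992.

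**Figure D5:**
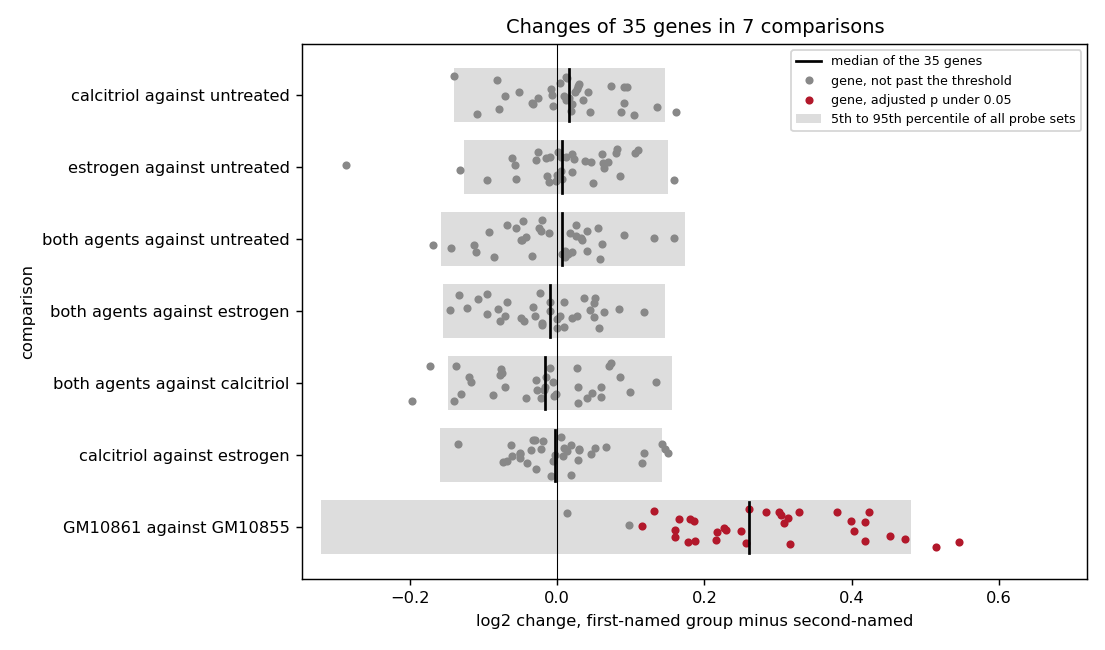
Log2 change of each of the 35 genes (points) in 6 comparisons of agents averaged over the lines and in GM10861 against GM10855 (bottom row), with the first-named group minus the second on the x axis. Black bars are medians of the 35 genes, and grey bands hold the middle 90 percent of all probe sets. The agents' medians lie within 0.02 of 0, and the median between the lines is 0.26.

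Within single lines 1 comparison gave calls. In GM10855 both agents against untreated cells called UTP20 and HEATR1 higher, 2 of 35 (5.71%), where 2.33% of probe sets were called and 1.97% were called higher. UTP20 had signals of 7.50, 7.37 and 7.27 with both agents, against 6.98, 6.91 and 7.07 in untreated cells, a change of 0.39 ± 0.08 (SE, limma adjusted p = 0.0143). HEATR1, a large scaffold protein of early pre-rRNA processing, had 9.03, 8.90 and 8.82 with both agents, against 8.43, 8.58 and 8.68 in untreated cells, a change of 0.35 ± 0.09 (SE, adjusted p = 0.0321). The arrays with both agents lay above the untreated ones for both genes. Without the first untreated array 1 of the calls was kept, and without the second untreated array or the first array with both agents neither was. The changes in the 6 fits without 1 array were 0.33 to 0.45 for UTP20 and 0.28 to 0.41 for HEATR1.

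In the same line UTP20 stood at 7.14 ± 0.02 with calcitriol alone and 7.26 ± 0.09 with estrogen alone (SD, n = 3 each), between the untreated cells and those with both agents, and HEATR1 at 8.76 ± 0.05 with calcitriol and 8.75 ± 0.09 with estrogen. In GM10861 UTP20 had 7.56, 7.41 and 7.39 with both agents, against 7.67, 7.46 and 7.46 in untreated cells, and HEATR1 had 9.02, 8.87 and 8.91 with both agents, against 9.13, 8.98 and 8.95 in untreated cells. These arrays overlapped, and the changes were -0.08 and -0.09. The difference between the lines in the response to both agents was -0.47 for UTP20 (adjusted p = 0.155) and -0.44 for HEATR1 (adjusted p = 0.194), GM10861 minus GM10855. It did not pass the threshold for any of the 35 genes (0.0141% of probe sets called). Before adjustment 8 members and 10.9% of probe sets were under 0.05.

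Further genes of the pathway lists were called in GM10855 with both agents. MDN1, a giant ATPase of large subunit assembly, rose by 0.35, and of the MYC network FBXW7 rose by 0.48, MGA by 0.41 and TRRAP by 0.27. GADD45A rose by 0.36, and POLR2L, a small subunit shared by the RNA polymerases, fell by 0.32 on the log2 scale. Of the 10 B-lymphoblastoid markers 4 rose in the same comparison, MS4A1 (0.45), CD79A (0.90), CR2 (0.70) and PAX5 (0.50). The summed log2 signal of the 10 was 85.79 to 85.9 with both agents, against 82.4 to 84.34 in untreated cells. With calcitriol alone it was 85.97 to 86.53 in GM10855. In GM10861 it was 83.51 to 84.12 with calcitriol alone, against 82.38 to 82.63 in untreated cells. Calcitriol alone called none of the 35 genes in either line. None of the 9 proliferation markers was called with both agents in GM10855, and their sum was 75.3 to 76.35, against 75.29 to 76.61 in untreated cells. The part of the B cell markers in the 2 calls was not tested. Across the 35 genes the change in this comparison had a rank correlation of 0.50 with the span of the gene in the RefSeq table, and across 19429 probe sets one of 0.23, among 18 comparisons for which it was computed. Both agents against calcitriol over both lines, where no member was called, gave 0.627 and 0.225. These are descriptions across genes, which are not independent, and the part of gene span in the calls was not tested.

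The remaining comparisons with untreated cells within a line called 0 of 35. In GM10855 these were calcitriol (0.509% of probe sets called, 5 members under 0.05 before adjustment) and estrogen (0.0%, 5 members). In GM10861 they were both agents (0.184%, 2 members), calcitriol (0.104%, 2 members) and estrogen (0.0%, 1 member). Before adjustment, the shares of all probe sets under 0.05 were 7.85% and 7.2% in these GM10855 comparisons. In GM10861 they were 6.71%, 5.9% and 4.69%, in the order given. MYC (0.26, adjusted p = 0.453) and CAD (0.26, adjusted p = 0.414) had the smallest p-values with calcitriol in GM10855. The medians of the 35 genes were 0.08 for calcitriol in GM10855 and -0.06 for calcitriol in GM10861, and the change in GM10861 minus that in GM10855 was below 0 for 32 of 35 genes, with a median of -0.19 against -0.03 over all probe sets. None of those differences was called (0.00943% of probe sets), the nearest being RRP12 (-0.28) and HEATR1 (-0.30), each with an adjusted p of 0.715. Before adjustment 7 members and 6.63% of probe sets were under 0.05. The difference in the estrogen response called none either (0.0% of probe sets), with 2 members and 5.93% of probe sets under 0.05 before adjustment. All differences of response share the untreated arrays. In untreated cells the median line difference was 0.37, larger than with calcitriol (0.22), estrogen (0.24) or both agents (0.27). The smaller line difference was seen with each agent, always against the same untreated arrays, and its cause was not tested.

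The untreated arrays of GM10855 were uneven for these genes. Taken as deviations from the line's own mean, the median of the 35 genes was 0.08 in the first of them, -0.10 in the second and -0.08 in the third, and between -0.04 and 0.08 in the other arrays of that line. In GM10861 the untreated arrays were at 0.08, 0.02 and 0.01 and the others between -0.03 and 0.04. The spread between arrays of a group, averaged over the 8 groups, was smallest for TSR1 (SD 0.04) and largest for MRTO4 (SD 0.15).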

How the data were processed

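Signals are log2 values that the authors deposited in 1 table of 33297 probe sets by 24 arrays. Per the submitters' processing notes they were made by RMA in Affymetrix Expression Console 1.0.1, and an Exiqon kit yielded the RNA for biotinylated cDNA, per the labels' protocols. RMA subtracts background, sets all arrays to 1 distribution and summarises probes, so a shift of all genes is not visible. Genes were named from the platform annotation: 19460 probe sets had 1 symbol, 1754 several and 12083 none, and symbols were updated by Entrez identifier for 19429. A fit of limma 3.58.1 in R 4.3.3, tested on simulated data, used 1 mean per group, 16 residual degrees of freedom and the 21214 probe sets with a symbol. Tests were two-sided, with Benjamini-Hochberg adjustment within each comparison. Intensity files were not used here. The genes and lists were chosen with earlier results of these data known. Genes named are MYC and MAX, the members called (at most 30 by p), otherwise up to 3 per direction by p, and up to 4 called genes of each other list. The number of arrays limits the precision. Alternatives were other filters, scalings, array weights, probe sets and fits without single arrays.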

Additional observations from a re-analysis of the deposited data

How the results depend on the processing

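No member was called under any alternative run in the 15 agent comparisons and differences of response without a call. Between the lines the count of 33 members stayed at 28 to 34 under the other filters, scalings, weights and probe sets, and at 32 to 34 in the fits without 1 array. It was 15 on the calcitriol arrays only, 16 on the estrogen arrays only and 23 on the arrays with both agents only. These comparisons were added after the data were seen. They compare means of 3 arrays a line, with the spread estimated from all 8 groups. On the last of these the log2 change of WDR75, GM10861 against GM10855, reversed to -0.015, and on the calcitriol arrays those of NPM3 (-0.03) and POLR1C (-0.01), also called over all arrays, were below 0; the cause was not tested. In the 32 fits that averaged over all 4 treatment groups 26 genes were called each time, MAX never, RRP12 in 7 and POLR1C in 19. In untreated cells the count of 26 became 17 with cyclic loess and 21 to 29 without 1 array. The 2 calls with both agents in GM10855 became 1 when all probe sets were tested, 0 with array weights, 0 with only the arrays compared, and 0 to 2 without 1 array. No paired analysis was possible because the labels number no replicates within a group. Among named genes 3561 values kept their side of the threshold and 92 lost a call. The 3561 include values that changed sign without a call in either fit. The 3 arrays per group limit what could be detected.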
